A study of Mus musculus with 14 samples.

Results

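Among 45281 probes on an Illumina mouse bead array, 79 were detected on all 3 control arrays, on none of the 6 day 4 arrays, and on fewer than all of the 5 day 14 arrays. Detected means a detection p-value under 0.05, the chance that a negative control bead, which matches no mouse transcript, is as bright as the probe. The control tissue and both tumour groups came from BALB/C mice aged 8 weeks. The tumour groups were the microenvironment of an AB1 tumour, a mouse mesothelioma line, sampled on day 4 (6 arrays) or day 14 (5 arrays) after inoculation of the tumour. The labels name no treatment or genotype, no organ or site for any group, and no separate animal for each replicate, nor whether the tumour groups held tumour cells.

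The detection p-values of all 3 groups chose these 79 probes, so their low day 4 values and their gap between control and day 14 were fixed by the choice. The values below describe them and carry no test. Absent at day 4 means not distinguishable from the negative controls there, and in whole tissue fewer cells of a type and less RNA per cell cannot be told apart. A probe's brightness also depends on its own sequence, so brightness ranks the probes for description and does not rank transcripts by abundance.

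None of the 79 probes could be given a gene name. Gene symbols were at hand only for probes of a shorter table of 7016 probes, of which 6083 had 1 symbol. Every probe of that table was detected on at least 10 arrays, whereas a member was detected on at most 7, so no member could be in it. Only 4 members are therefore named by their Illumina ID, and the others are called by their rank of control level. Named probes that ran beside the members are given after the members' own values, and they do not show what the members are.

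Hair follicles are small organs of the skin that grow, regress and rest in cycles. A growing follicle builds its shaft and inner sheath from keratins found in few other tissues, and its cells are joined by connexin channels, as are those of the epidermis. Transcripts of these keratins can be abundant in a piece of skin and near nothing in muscle, fat or tumour. This is background to the named probes below, and none of it assigns a gene to a member.

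The 79 probes were mostly dim even in control. After normalization, the median over members was a log2 intensity of 5.22, 4.89 and 4.98 on control replicates 1 to 3. It lay between 4.27 and 4.32 on the 6 day 4 arrays. On day 14 replicates 1 to 5 it was 4.40, 4.69, 4.64, 4.45 and 4.41. The day 14 medians thus all lay between those of day 4 and control. Averaged over arrays, the control value was 5.03 ± 0.17 (SD, n = 3). The day 4 value was 4.30 ± 0.01 (SD, n = 6), and the day 14 value 4.52 ± 0.14 (SD, n = 5).

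The same order stood in the intensities before any correction, on which the detection p-values that chose the members rest. The median member was 19.9%, 17.4% and 16.7% brighter than the median of all probes on control replicates 1 to 3. On the day 4 arrays it lay between 1.08% below and 0.583% above that median. On day 14 replicates 1 to 5 it was 3.47%, 15.6%, 11.5%, 6.02% and 3.72% above it. At day 4 the members were therefore as dim as the typical probe, and most probes on an array were not detected.

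The control signal was concentrated in few members. The 12 brightest had a median control mean of 6.93, with a range of 6.14 to 8.77, and the other 67 a median of 4.92. In control, 26 members had a detection p of 0 on all 3 arrays. In 45 members the highest of the 3 control p-values was under 0.01, and in 34 it lay between 0.01 and 0.05. The members therefore run from clear signals to probes at the edge of detection. The highest control p-value was 0.0491 for the member nearest the threshold and 0.0502 for the nearest probe outside it, and 77 probes that met the other criteria lay outside by having that p between 0.05 and 0.1. At day 4 the lowest p was 0.0502 for the nearest member and 0.0491 for the nearest probe outside. At day 14 the highest p was 0.0534 and 0.0491 in the same order. In 30 members both margins were wide, with a control p under 0.01 on every array and a day 4 p of at least 0.1 on every array.

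The brightest member, ILMN_2437012, had a log2 intensity of 9.62, 8.62 and 8.06 on control replicates 1 to 3. Its 6 day 4 values lay between 4.25 and 4.40, with a median of 4.32. On day 14 replicates 1 to 5 it had 4.52, 6.57, 6.29, 5.34 and 5.44. All day 14 values lay above all day 4 values and below all control values, but replicate 1 was close to day 4. The control mean was at least 17.8-fold above day 4, and the day 14 mean at least 2.03-fold above it. Here and below, at least means that a day 4 array on which the probe was not detected enters with the dimmest detected value of that array. Day 14 arrays are treated likewise where control is set against day 14. In folds of day 14 over day 4, undetected day 14 arrays keep their measured value, so these folds are not strict bounds. On the linear scale, the day 14 mean stood 7.80% of the way from the day 4 mean to the control mean.

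The members of rank 2 and 3 had nearly the same profile as ILMN_2437012. The second had 9.35, 8.02 and 7.61 in control and 4.35, 6.12, 5.81, 4.96 and 5.10 at day 14, replicates in order. The third had 8.97, 7.94 and 7.11 in control and 4.32, 5.86, 5.61, 4.83 and 5.12 at day 14. Both were highest on control replicate 1 and lowest at day 14 on replicate 1, as was ILMN_2437012. Their control means were at least 13.1-fold and 10.5-fold above day 4. On the linear scale the day 14 mean of the second stood 6.83% of the way from day 4 to control, and that of the third nearly the same.

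Member ILMN_3017166, of rank 4, had the largest day 14 rise over day 4. It had 8.16, 7.28 and 7.02 in control and at most 4.28 at day 4. At day 14 it had 5.37, 6.57, 6.16, 6.10 and 4.63 on replicates 1 to 5. Its day 14 arrays again lay between both other groups without overlap, yet the lowest was replicate 5 and not replicate 1. Its control mean was at least 7.31-fold and its day 14 mean at least 2.22-fold above day 4, a return of 24.3% on the linear scale.

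The members of rank 5 and 6 varied most at day 14. The fifth had 6.75, 6.50, 5.30, 4.76 and 4.45 on day 14 replicates 1 to 5, with an SD of 1.03, and 8.09, 6.71 and 6.51 in control. The sixth had 5.40, 6.77, 5.54, 4.83 and 4.23 at day 14 and 7.77, 6.17 and 7.06 in control. In both, at least 1 day 14 array reached the control range while another lay near the day 4 values. They are the only members among the 12 brightest whose day 14 and control arrays overlapped. The members of rank 7 to 12 had control means of 6.14 to 6.86, day 14 means of 4.65 to 5.19 and day 4 means of 4.24 to 4.45.

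Over the 12 brightest members, the control mean was at least 2.88-fold to 17.8-fold above day 4, with a median of 4.98-fold. The linear return at day 14 lay between 6.83% and 32.2% of the gap, with a median of 15.6%. It differed between day 14 arrays: the median over these 12 members was 5.43%, 24.1%, 20.8%, 9.52% and 4.81% on replicates 1 to 5. Control replicates 1 to 3 stood at 164%, 73.5% and 67.5% on the same scale, so replicate 1 carried more than its share of the control level. All 12 brightest members, and 57 of the 79, were highest on control replicate 1. The share of all tested probes that were highest there is not given here. Control replicates 1 to 3 had 10659, 11772 and 11696 detected probes. The part of array sensitivity in the member levels of the control arrays was not tested.

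The other 67 members had small differences. Their median control mean was 4.92, their median day 4 mean 4.33 and their median day 14 mean 4.49. The control mean was at least 1.24-fold above day 4 at the median of these 67, and at most 2.84-fold. Of all 79 members, 19 were at least 2-fold, 8 at least 4-fold and 3 at least 8-fold lower at day 4 by this bound, and in 1 the bound gave no fold. The day 14 bound gave no fold over day 4 in 50 members. For most of the list the loss and the return are thus known by detection more than by size.

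At day 4 the 12 brightest members lay in the middle of the negative controls. Their median detection p over 72 values (12 members on 6 arrays) was 0.502, close to the 0.5 at the midpoint of the negative controls, and 50% of the values lay below 0.5. Among the 402 values of the other 67 members the median was 0.328, and 67.7% lay below 0.5. The dim members hence lay, in their bulk, slightly above the midpoint of the negative controls at day 4. The median over all members ranged from 4.27 to 4.32 on the day 4 arrays, a small spread that the choice of probes undetected on each of them favours. The number of detected probes on these arrays ranged from 8257 to 12370. All 6 day 4 arrays lay below all 3 control arrays in 76 of the 79 members, a separation that the choice of members favours. The share over all tested probes is not given here for this count, which is read no further.

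At day 14 the members came back on some arrays far more than on others. Replicates 1 to 5 detected 19, 66, 62, 24 and 5 of the 79 members, or 24.1%, 83.5%, 78.5%, 30.4% and 6.33%. The number of all probes detected on the same arrays was 10589, 13867, 13693, 9731 and 7059. The arrays with the most and the fewest detected members were thus also those with the most and the fewest detected probes, and the part of array sensitivity in the member counts was not tested. The levels ran the same way for the 12 brightest members, with medians of 4.63, 5.74, 5.46, 4.95 and 4.65 on replicates 1 to 5. Replicates 1 and 5 had nearly the same level there, and detected 10589 and 7059 probes.

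By the number of day 14 arrays that detected them, 9 members were found on none, 10 on 1, 26 on 2, 22 on 3 and 12 on 4. In 58 members both replicates 2 and 3 detected the probe, and in 25 these were the only arrays that did. Of the 70 members detected on any day 14 array, 0 were missed by both replicates 2 and 3. In 42 members the lower of replicates 2 and 3 lay above all 3 other day 14 arrays. Replicate 2 was the highest day 14 array in 37 members and replicate 3 in 21, and the lowest was replicate 5 in 31 and replicate 1 in 26. Shares over all tested probes are not given here for these orders of arrays, so they are not read as particular to the members. In 8 members replicate 5 was the only day 14 array without detection, and without that array the list would have 71 members.

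Members detected on more day 14 arrays were brighter in control. The median control mean was 4.76 for those detected on no day 14 array, 4.87 on 1, 5.00 on 2, 5.08 on 3 and 6.93 on 4. The median day 4 mean lay between 4.29 and 4.35 in all 5 sets. As brightness and detection are not independent, this order describes the list and does not compare how far its members returned.

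The 9 members detected on no day 14 array had day 14 means of 4.23 to 4.43, beside day 4 means of 4.17 to 4.40. The brightest of these, ILMN_1223880, had 5.15, 4.60 and 5.40 on the control arrays, 4.19 to 4.35 at day 4 with a median of 4.25, and 4.204, 4.31, 4.34, 4.23 and 4.30 at day 14. Its day 4 and day 14 arrays overlapped, and the control mean was at least 1.35-fold above day 4 and at least 1.34-fold above day 14. The next, ILMN_1217304, had 5.15, 4.83 and 4.77 in control, 4.204 to 4.36 at day 4 with a median of 4.23, and 4.28, 4.30, 4.35, 4.23 and 4.22 at day 14. Its control mean was at least 1.23-fold above day 4 and at least 1.22-fold above day 14. Both differences are smaller than those of the 12 brightest members, and both probes are among the dim part of the list.

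A linear model of the 3 groups was also fitted with limma to the 14916 probes detected on at least 3 arrays. All 79 members passed this filter, through the control arrays that the choice had required. At a Benjamini-Hochberg adjusted p under 0.05, day 4 lay lower than control in 60 members, where 2.91% of all tested probes were called lower. Day 14 lay lower than control in 47 members, against 6.72% of tested probes. The call of higher at day 14 than at day 4 went to 14 members, against 8.47% of tested probes, and 8.57% were called lower there. As the choice of members used all 3 contrasts, these counts follow from it and are read no further. All 12 brightest members had the lower call in both comparisons with control, which share the control arrays, and 9 of the 12 had the higher call for day 14 over day 4. Without overlap between arrays, 48 members lay below control at day 14, where 10.6% of tested probes did, and 19 lay above day 4 at day 14, where 5.47% did.

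The fitted median log2 difference over the members was -0.66 at day 4 against control, -0.51 at day 14 against control and 0.22 at day 14 against day 4. The medians over all tested probes were 0.02, 0.01 and 0.00. With the undetected day 4 arrays at their bound, the median control excess over day 4 was 0.39. The count of members called lower at day 14 was 17 with arrays scaled to a common median, and 23 without control replicate 1. The count called lower at day 4 was 33 without control replicate 1. The count called higher at day 14 than at day 4 was 8 without day 14 replicate 2, and 8 without day 14 replicate 3.

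A set of 55 probes shared the control and day 4 criteria but was detected on every day 14 array, so that the 2 sets divide the 134 probes detected in control and not at day 4. The 55 were much brighter in control, with medians of 9.10, 8.68 and 8.75 on control replicates 1 to 3, against 5.22, 4.89 and 4.98 for the members. On the day 4 arrays the median of the 55 was 4.22 to 4.28, slightly below that of the members on each of the 6 arrays. At day 14 the 55 had medians of 6.88, 8.13, 7.88, 7.15 and 7.07 on replicates 1 to 5. Replicates 2 and 3 were highest and replicate 1 lowest in both sets. Since detection at day 14 divided them, the difference in level is a description.

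The members' profiles were next set beside those of the other tested probes, over the 14 arrays. The points of each correlation share arrays, groups and normalization, so that probes that are low at day 4 correlate for that reason, and r is given as a description. The 3 probes most like ILMN_2437012 were the members of rank 2 and 3 (r = 0.997 and 0.995) and a probe that is no member and has no name (r = 0.981). With group means taken out, these r were 0.981, 0.966 and 0.943, so the 3 brightest members also varied together within groups. Over the other 78 members, r with ILMN_2437012 ran from 0.39 to 1.00 with a median of 0.89, and with group means taken out from -0.67 to 0.98 with a median of 0.57. In 6 of the 78 the latter was below 0. With group means taken out, the median was 0.76 over the 55 probes detected on every day 14 array and 0.00 over all other tested probes. Variation shared with ILMN_2437012 within groups was thus not particular to the members.

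No named probe can share the members' absence at day 4, since each was detected on at least 10 arrays. Named probes can only be ranked by how closely they ran with a member. The following were picked from 6083 named probes for their correlation with ILMN_2437012, after values had been seen, so their levels are a description. The closest was Sytl2, which encodes a synaptotagmin-like protein of vesicle transport (r = 0.976 over the 14 arrays and 0.80 with group means taken out). The Sytl2 control level was 7.41 ± 0.30 (SD, n = 3) on the log2 scale. Its day 4 level was 4.87 ± 0.15 (SD, n = 6), and 5.88 ± 0.41 (SD, n = 5) was its day 14 level. Like the 3 brightest members, it was lowest at day 14 on replicate 1, at 5.15.

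The next was Dlx3, a homeobox transcription factor needed for hair and for epidermal differentiation (r = 0.955 and 0.68). The Dlx3 control level was 8.24 ± 0.57 (SD, n = 3) on the log2 scale. Its day 4 level was 5.11 ± 0.51 (SD, n = 6), and 6.40 ± 0.45 (SD, n = 5) was its day 14 level. Gjb6, which encodes the connexin 30 of gap junctions in skin and other epithelia, had r = 0.938 and 0.58. By r over the 14 arrays it came after Ctns (r = 0.947), which is given below. The Gjb6 control level was 8.03 ± 0.36 (SD, n = 3) on the log2 scale. Its day 4 level was 4.75 ± 0.42 (SD, n = 6), and 6.37 ± 0.35 (SD, n = 5) was its day 14 level. Unlike the members, Sytl2 and Dlx3 were still detected on 5 and Gjb6 on 4 of the 6 day 4 arrays.

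The other 7 of the 10 closest named probes were those of Ctns, a lysosomal cystine transporter, Slc39a6, a zinc transporter, Zfand6, Ephb1, a receptor for ephrins, Otub2, a deubiquitinase, Gmcl1 and Cyria. Their r lay between 0.916 and 0.947, and between 0.45 and 0.67 with group means taken out. They too were still detected at day 4, Ephb1 and Cyria on 4 arrays and Ctns, Slc39a6, Zfand6, Otub2 and Gmcl1 on all 6. The Ctns control level was 7.54 ± 0.20 (SD, n = 3) on the log2 scale. Its day 4 level was 6.38 ± 0.17 (SD, n = 6), and 6.78 ± 0.12 (SD, n = 5) was its day 14 level. Each of the 10 had its mean lowest at day 4 and its day 14 mean between day 4 and control, as the way they were picked makes likely.

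Marker lists of cell types were applied to the named probes, to show what else differed between these samples. Each named probe was detected on at least 10 of the 14 arrays. A gene detected on no day 4 array therefore could not be read on these lists. Of all tested probes, 1.83% were called higher and 2.91% lower at day 4 against control. At day 14 against control the shares were 5.34% and 6.72%. Of the hair follicle and sebaceous gland list, 4 of 30 genes had a named probe (5 probes). Among them was Krt27, a keratin of the inner root sheath of the hair follicle. It had 12.9, 12.4 and 12.1 on control replicates 1 to 3, 4.30 to 6.50 at day 4, and 10.9, 11.7, 11.3, 11.3 and 11.2 on day 14 replicates 1 to 5. It was 7.18 log2 units lower at day 4 than in control (limma adjusted p = 1.22e-10), and all 6 day 4 arrays lay below all other arrays. At day 14 it was 1.20 log2 units below control (limma adjusted p = 0.0340), a call that other settings did not all keep (0.00161 to 0.296). Unlike the members, Krt27 was still detected on 5 of the 6 day 4 arrays, and it was detected on every day 14 array. Its r with ILMN_2437012 was 0.79, and 0.39 with group means taken out.

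The other 4 probes of that list, of Scd1, Mgst1 and Dct, were not called at day 4 (2 of the 5 probes were lower at an unadjusted p under 0.05). At day 14 all 5 had a lower call against control, and 0 had one with arrays scaled to a common median. Between control and day 4 the log2 difference was 0.35 for Scd1, -0.16 and 0.03 for the Mgst1 probes and -1.34 for Dct, and the median over the 5 probes was -0.16. Over the whole list, to which Krt27 gives the largest term in control, the summed linear level ran from 6799 to 9977 in control, 2329 to 3487 at day 4 and 2518 to 4481 at day 14. The part of hair follicle content in the members' values was not tested.

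The named probes of epidermal keratinocyte genes had no lower call at day 4, but a gene lost there as the members were could not be among them. Of that list 18 of 31 genes had a named probe (25 probes). At day 4 against control 5 of the 25 were called higher and 0 lower, with backgrounds of 1.83% and 2.91%, and a median log2 difference of 0.17. At an unadjusted p under 0.05, limma gave 8 higher and 3 lower. The 5 higher calls became 0 without control replicate 1. Their summed level was 20517 to 35292 in control, 34440 to 45807 at day 4 and 9769 to 18410 at day 14. At day 14, 22 of the 25 had a lower call against control (15 without control replicate 3 and 0 with median scaling), with a median of -1.23. Krt10, a keratin of the upper epidermis, had a control level of 12.74 ± 0.73 (SD, n = 3) on the log2 scale. Its day 4 level was 13.36 ± 0.28 (SD, n = 6), and 11.31 ± 0.53 (SD, n = 5) was its day 14 level. The members' low day 4 values thus stood beside a summed keratinocyte level whose range lay mostly above that of control, and their day 14 values beside one that lay below it. With arrays scaled to a common median 0 of the 25 were called in either comparison with control, at medians of 0.03 and -1.21.

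Skeletal muscle genes ran the other way at day 4, but varied with the brightest member within groups. Of that list 25 of 44 genes had a named probe (31 probes), and 12 of these had a higher call for day 4 over control and 0 a lower one (29 and 0 at an unadjusted p under 0.05, by limma), with a median log2 difference of 1.60. Of all tested probes 1.83% were called higher and 2.91% lower there. The summed level of the muscle probes was 6216 to 14742 in control, 18206 to 40307 at day 4 and 4843 to 35261 at day 14. With arrays scaled to a common median 0 were called, at a median of 1.29, and with 1 array left out the higher calls numbered 3 (without control replicate 1) to 20. The median log2 level of these probes was 6.42, 8.37, 8.14, 6.77 and 5.13 on day 14 replicates 1 to 5, so that replicates 2 and 3 were highest, as for most members. With group means taken out, r with ILMN_2437012 was above 0 in 30 of the 31 probes, with a median of 0.63 and a range of -0.52 to 0.80. Over the 5 hair follicle and sebaceous gland probes the median was 0.42, and over the 25 keratinocyte probes 0.04. The part of a different share of muscle in the samples was not tested.

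The luminal and glandular epithelium list (4 named genes of 21) had 2 probes called lower at day 4 and 4 at day 14. The adipocyte list (9 of 26) had 0 probes called at day 4 (5 higher at an unadjusted p under 0.05, by limma) and 7 lower at day 14. The macrophage and monocyte list (8 of 18, 10 probes) had 1 lower at day 4 and 7 higher and 1 lower at day 14. The interferon response list (5 of 16) had 0 called at day 4 (1 higher at an unadjusted p under 0.05, by limma) and 4 higher at day 14. Of the other 12 lists, mesothelium had no named probe, and in the remaining 11 at most 1 probe of a list was called in either direction at day 4. At day 14 against control these 11 lists had 0 to 5 probes called higher and 0 to 3 lower. The fibroblast and matrix list (15 of 18 genes, 21 probes) had 5 higher and 3 lower. The dendritic cell list had 4 of 4 probes higher and the cell cycle list 3 of 5, a count that was weaker in 15 other settings. The smooth muscle and pericyte list had 3 of 6 probes lower. Each other list among the 11 had at most 1 probe called, which for neutrophils was its only probe, called lower. The shares of all tested probes called higher and lower were 1.83% and 2.91% at day 4 against control, and 5.34% and 6.72% at day 14 against control.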

How the data were processed

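The authors deposited linear intensities that had not been normalized, each beside its detection p-value, per the file headers. They also deposited a shorter table of log2 values. RNA was hybridised as biotin-labelled cRNA, per the labels' protocols, and scanner software or background steps were not given in the sources used here. All deposited log2 values have the same median on every array. Columns were matched to samples by name. Set against the log2 table, intensity columns of control replicates 1 and 2 matched each other's number (r = 0.9994 and 0.9995, against 0.9716 and 0.9711 for their own), and the numbering of the intensity table was kept. Both arrays are controls, so no group changes.

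Intensities were corrected and quantile normalized by neqc of limma 3.58.1 in R 4.3.3 (negative controls inferred from detection p-values, offset 16) and log2 transformed. The 14916 probes detected on at least 3 arrays were fitted with lmFit and eBayes over all 14 arrays, with Benjamini-Hochberg adjustment. The script was tested on simulated data. Nothing says that replicates were separate animals, so p-values cover only how far these samples vary, which may be technical. The number of arrays limits the precision.

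The members and the marker lists were chosen with earlier results of these data known. Members without a gene name were to be named by 4 IDs: the 2 brightest in control among those detected on no day 14 array, and the 2 with the largest day 14 rise over day 4. Symbols came from a platform annotation, and 6075 of 6083 were found in the gene table of GRCm38.p6. Alternatives changed the detection threshold, background, scaling, filter, fit and arrays used. Same-numbered arrays did not all deviate together (correlations of -0.302 to 0.247), so numbers were not taken to pair samples.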

Additional observations from a re-analysis of the deposited data

Results flagged for a closer look

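Among the 29 measures checked for an array far from the rest of its group, 2 had one, and chance gives about 1 in 20. ILMN_1217304 had 4.36 on day 4 replicate 4, while its other day 4 arrays had at most 4.26. Sytl2 had 5.15 on day 14 replicate 1, and its other day 14 arrays had 5.98 to 6.13. The tumour groups differed in 14 members, called higher at day 14 than at day 4, which the choice of members favours. Krt27 was 5.98 log2 units higher at day 14 than at day 4 (limma adjusted p = 1.90e-10).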

How the results depend on the processing

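The list of 79 depends on single arrays. Leaving out 1 array gave 71 to 168 members: 142, 168 and 127 without control replicates 1, 2 and 3, each holding all 79, and 71 without day 14 replicate 5. Members called lower at day 4 than in control numbered 60, and 33 to 64 with 1 array left out, 33 being without control replicate 1. Their median difference of -0.66 was -0.26 with no background correction, -0.36 with normexp without negative controls, and -0.86 to -0.63 with 1 array left out. Members called lower at day 14 than in control numbered 47, but 17 with median scaling, 29 with only both groups in the fit, 27 at an adjusted p under 0.01, and 23 to 49 with 1 array left out (23 without control replicate 1, 31 without control replicate 3). The median of -0.51 was -0.18 with no background correction, -0.26 with normexp without negative controls, and -0.65 to -0.46 with 1 array left out. Members called higher at day 14 than at day 4 numbered 14, but 6 with median scaling, 9 with no filter, 7 at an adjusted p under 0.01, and 8 to 18 with 1 array left out (8 without day 14 replicate 2 or 3). With the replicate block, 35 members were called lower at day 4 and 27 at day 14 against control. The causes were not tested, except that without a control array only 70 of the 79 remained testable. Median scaling moved the median of all probes by 0.11 between day 14 and day 4. No listed result changed its direction. The deposited log2 table lists 0 members and gave no value. Most members lie near background, which limits what their folds can show.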
